A study of Mus musculus with 10 samples.

Results

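Chromatin accessibility on day 3 was compared with that on day 2 in mouse embryonic stem cells differentiating towards neuromesodermal progenitors, with 2 libraries a day out of the 10 libraries of the series. The assay was ATAC-seq, in which a transposase cuts open DNA and leaves sequencing adapters there. All groups were wild-type cells of the C57BL/6 line ES-Bruce4, a single line, freed of feeder fibroblasts by 1 round of depletion and cultured from day 0 in serum-free N2B27 medium with 10 ng/ml bFgf. CHIR99021 at 5 µM was added on day 2. It inhibits the kinase GSK3 and so turns on Wnt signalling. Day 2 cells are labelled as epiblast stem cells and day 3 cells as neuromesodermal progenitors, and both carry the label untreated, which refers to Gdf11. The remaining groups, taken at day 6 and at day 7 without or with Gdf11 (50 ng/ml, 24 h), entered the fit and are given as later levels only. The labels give no day 3 group without CHIR99021, so its addition and the extra day in culture cannot be told apart. They do not say whether day 2 cells were taken before the addition, nor whether the libraries of a day came from separate cultures. The p-values rest on the spread between libraries within all groups, drawn largely from all regions together. They do not rest on a known spread between cultures. The 4 libraries were described over all 246799 merged regions of the series, of which 173175 passed the filter on low counts and were tested.

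In canonical Wnt signalling a Wnt ligand binds a Frizzled receptor and an LRP co-receptor. The complex of AXIN, APC, CK1 and GSK3 then stops degrading beta-catenin, which enters the nucleus and joins TCF/LEF factors on DNA. AXIN2, NKD1, DKK and ZNRF3 proteins are inhibitors made in response to the signal. In the embryo, Wnt and FGF signals maintain the caudal epiblast, the tissue that holds neuromesodermal progenitors, which express T, Sox2, Nkx1-2 and Cdx genes and later supply spinal cord and paraxial mesoderm. Epiblast cells that have not yet been given a caudal identity express Fgf5, Otx2 and Dnmt3b. GSK3 inhibition acts below the receptor, so ligands and receptors are here read only as loci.

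The DNA just before 6 genes is printed first, because a region over the start or just before it was called higher on day 3 at each of them. The 6 were picked after the values were seen, and all 6 hold letters of the kind marked below. Each run is 250 bases, read 5′ to 3′ on the gene's own strand and ending at the base before the start listed by RefSeq on GRCm38.p6. Capitals mark exact matches to CTTTGA or its reverse complement TCAAAG, the core recognised by TCF/LEF factors, and to CATAAA or its reverse complement TTTATG, a core of the CDX and posterior HOX sites.
Sp5: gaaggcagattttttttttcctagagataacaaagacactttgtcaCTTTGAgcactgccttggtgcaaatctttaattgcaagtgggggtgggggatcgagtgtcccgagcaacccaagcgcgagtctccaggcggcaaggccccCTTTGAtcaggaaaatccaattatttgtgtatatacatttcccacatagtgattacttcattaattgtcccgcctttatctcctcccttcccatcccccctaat
Wnt5b: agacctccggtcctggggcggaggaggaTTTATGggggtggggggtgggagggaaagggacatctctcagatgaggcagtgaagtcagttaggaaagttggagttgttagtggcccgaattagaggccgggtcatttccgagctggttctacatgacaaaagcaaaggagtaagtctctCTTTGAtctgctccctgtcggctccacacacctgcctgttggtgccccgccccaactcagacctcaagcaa
T: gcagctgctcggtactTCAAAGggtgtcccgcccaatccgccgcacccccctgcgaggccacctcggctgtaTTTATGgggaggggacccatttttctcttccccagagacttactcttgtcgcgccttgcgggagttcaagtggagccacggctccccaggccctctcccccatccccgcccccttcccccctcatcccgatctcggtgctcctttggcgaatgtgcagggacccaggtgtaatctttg
Sp8: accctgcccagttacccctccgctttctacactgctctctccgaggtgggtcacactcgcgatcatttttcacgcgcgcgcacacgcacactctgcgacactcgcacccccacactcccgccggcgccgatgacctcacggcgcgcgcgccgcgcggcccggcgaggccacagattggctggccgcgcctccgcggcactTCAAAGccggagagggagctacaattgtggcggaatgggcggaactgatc
Hoxa7: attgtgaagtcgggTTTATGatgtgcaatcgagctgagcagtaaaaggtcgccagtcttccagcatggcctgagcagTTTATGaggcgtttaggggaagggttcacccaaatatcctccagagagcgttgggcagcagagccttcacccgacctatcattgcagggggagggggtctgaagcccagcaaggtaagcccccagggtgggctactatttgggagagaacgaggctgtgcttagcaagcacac
Hoxb8: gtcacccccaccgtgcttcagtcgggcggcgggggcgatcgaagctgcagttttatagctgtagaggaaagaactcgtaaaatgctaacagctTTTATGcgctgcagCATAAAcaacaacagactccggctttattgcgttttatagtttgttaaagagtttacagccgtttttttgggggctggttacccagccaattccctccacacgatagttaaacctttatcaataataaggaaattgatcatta
The Sp5 run lies at chr2:70474673-70474922 on the plus strand and holds CTTTGA with its first letter 204 and 104 bases before the start. Wnt5b, at chr6:119449387-119449636 on the minus strand, holds TTTATG at 222 and CTTTGA at 71 bases. T, at chr17:8434173-8434422 on the plus strand, holds TCAAAG at 234 and TTTATG at 178 bases. Sp8, at chr12:118846983-118847232 on the plus strand, holds TCAAAG at 50 bases. Hoxa7, at chr6:52218574-52218823 on the minus strand, holds TTTATG at 236 and 173 bases. Hoxb8, at chr11:96281655-96281904 on the plus strand, holds TTTATG at 157 and CATAAA at 143 bases. A match describes the letters and not a bound site. Regions over the start or just before it were also called higher at Fzd10, Axin2, Cdx2, Nkx1-2 and Evx1. Their 250 bases hold neither core and were not printed. Hoxd3 and Msgn1 had such a region and hold a match, and were not printed either. The 6 runs are therefore not typical of all starts called higher. For all genes, overlap with regions was read on windows of 300 bases that add the first 50 bases after the start. The letters were searched only in the 250 bases before the start. CTTTGA in either orientation was in 11.3% of 937 windows overlapping a region called higher and in 7.26% of 427 overlapping a region called lower. It was in 9.84% of 12165 windows overlapping a tested region that was not called. CATAAA in either orientation was in 6.08%, 2.58% and 5.2% of the same windows. ATTTGCAT, the octamer read by POU factors, or its reverse complement ATGCAAAT, was in 1.07%, 2.81% and 1.41%. Over all 21262 windows of 17491 genes the shares were 12.7%, 8.95% and 1.58%. Base composition differed between these sets, with a median of 24 CG pairs in the windows called higher, 15 in those called lower and 21 in those not called, and its part in the shares was not tested.

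The 4 libraries held between 7150334 and 11246030 counts over the merged regions, of which 10.13% to 13.42% fell on mitochondrial DNA. Levels are given below as CPM, a region's count per 1000000 counts of the library over all merged regions. The libraries of day 2 had a Spearman correlation of 0.887 across regions and those of day 3 of 0.862, against 0.734 to 0.754 between days, as a description across regions that share libraries. Accessibility is an average over 50000 cells, so more cells with a region open and a more open region per cell cannot be told apart.

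At the markers of the contrast, Sp5 and Cdx1 were more open on day 3 and Fgf5 was less open, in several separate regions each. Sp5 encodes a zinc finger factor that is a direct Wnt target, Cdx1 a caudal homeobox factor and Fgf5 a growth factor of the epiblast. Of the 8 tested regions assigned to Sp5, 6 were higher and none was lower. The region over its start (chr2:70474407-70475239) stood at 11.5 and 16.3 CPM in the day 2 libraries and at 61.3 and 56.9 CPM on day 3. That is a log2 change of 2.11 ± 0.18 (SE, n = 2 and 2, edgeR adjusted p = 3.99e-15). The largest change at the locus was 10.09 kb past the start (chr2:70484757-70485274), where 0.218 and 0.524 CPM became 7.47 and 6.57 CPM (log2 change 4.27 ± 0.46). A pair of regions 18.48 and 17.89 kb before the start went up by 3.02 and 3.21 on the log2 scale, from at most 2.1 CPM in any day 2 library to at least 5.17 CPM in every day 3 library. The region 2.83 kb before the start was already open on day 2, at 13.9 and 13.2 CPM, and reached 30.1 and 32.6 CPM. None of these 6 regions had overlapping values between the days.

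Of 4 tested regions that overlap Cdx1, 2 were higher. The first (chr18:61034661-61035300) stood at 8.6 and 8.39 CPM on day 2 and at 38.9 and 37.9 CPM on day 3 (log2 change 2.19 ± 0.21, adjusted p = 4.77e-13). The second (chr18:61036197-61036449) went from 3.16 and 3.28 CPM to 6.85 and 10.9 CPM (1.47 ± 0.37, adjusted p = 0.00318), a call that was lost at a log2 change of 1.04 without the second day 3 library. This region lies mostly outside the gene, whose span ends at position 61036199. Of 6 tested regions assigned to Fgf5, 3 were lower and none was higher. The strongest (chr5:98255714-98256314), 1.83 kb past the start, fell from 38.5 and 37 CPM to 12.4 and 12.2 CPM (log2 change -1.60 ± 0.21, adjusted p = 1.67e-08). A region 39.24 kb past the start fell from 14.7 and 18.4 CPM to 6.05 and 5.31 CPM. The region over the Fgf5 start itself did not pass the test, with 9.47 and 12.5 CPM on day 2 and 9.51 and 8.11 CPM on day 3 (-0.29 ± 0.25, adjusted p = 0.496). The third call, 29.83 kb past the start, was lost under DESeq2 (log2 change -1.37) and without the second library of day 2 (-1.04) or of day 3 (-1.11).

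**Figure D1:**
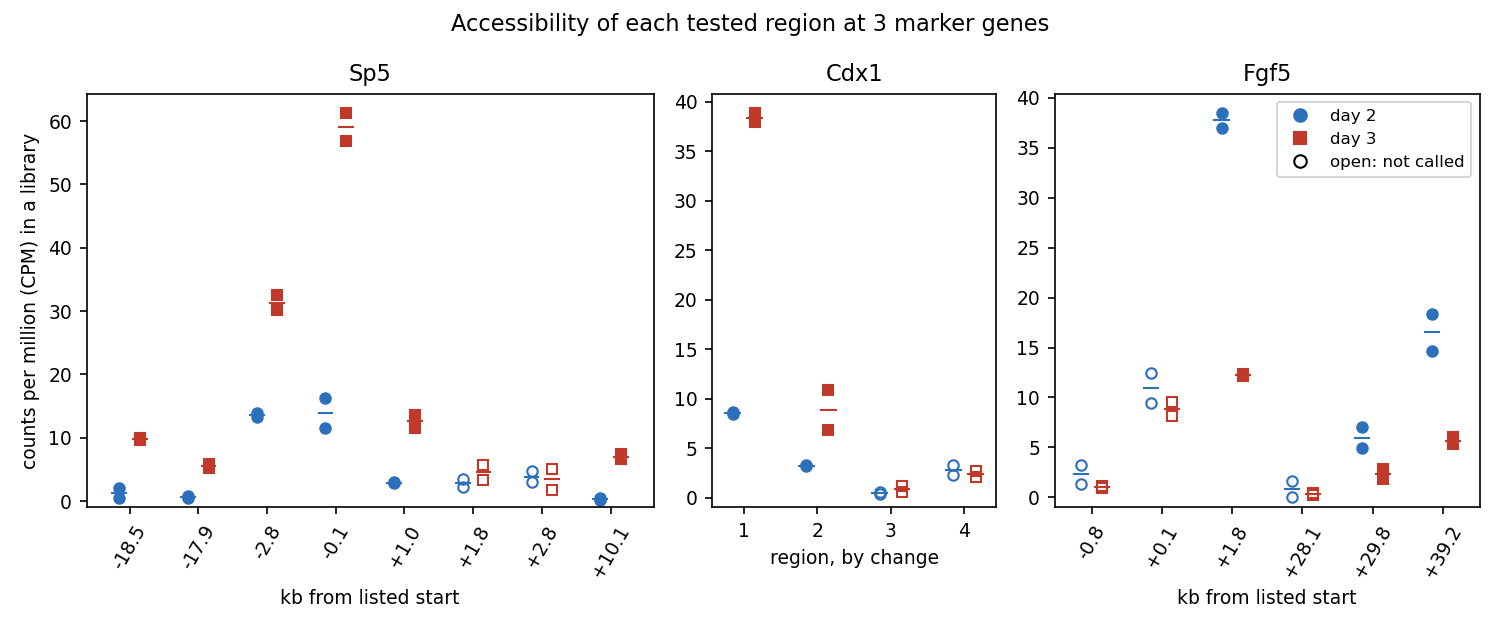
CPM (vertical axis) of every tested region at Sp5, Cdx1 and Fgf5 in each day 2 library (blue circles) and day 3 library (red squares), by distance from the listed start in kb or, for Cdx1, by size of change; short lines are means of 2 and open symbols are regions not called. The 6 filled Sp5 regions and the 2 filled Cdx1 regions lie higher on day 3, the 3 filled Fgf5 regions lie lower, and the region over the Fgf5 start overlaps between days.

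Across the genome, 23055 regions (13.3% of those tested) differed between the days, 15420 higher on day 3 (8.9%) and 7635 lower (4.41%). By the stricter rule that adds a change of at least 2-fold, 13830 were higher (7.99%) and 5887 lower (3.4%). Values did not overlap between the days, whatever the test, in 29% of tested regions upwards and 24.6% downwards. Higher calls were 66.9% of all calls, but 58.5% after cyclic loess, another normalization. It gave 13395 higher and 9487 lower regions and a median log2 change of -0.03. DESeq2 called 13231, and without 1 library the count was 14478 (without the first of day 2), 16607 (second of day 2), 14575 (first of day 3) or 16655 (second of day 3). Regions called higher had a median of 0.699 CPM on day 2 and 3.53 CPM on day 3, and 1025 of them had no count in either day 2 library. Regions called lower had a median of 8.44 CPM on day 2 and still 3.18 CPM on day 3, and 44 had no count in either day 3 library. The median log2 change was 2.23 in the first set and -1.39 in the second, against 0.07 over all tested regions.

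Among well covered regions without overlap, the largest increases were from no count at all on day 2. A region inside Ifi209, an interferon-inducible gene (chr1:173639483-173640019), had 0 and 0 CPM on day 2 and 11.5 and 13.1 CPM on day 3, a rise of at least 69-fold when 3 counts over the day 2 group are taken as the floor. Regions near Poteg, inside Cpa6 (a carboxypeptidase gene), inside Cdx4 and near Pld5 were at least 63.7, 56.7, 56.5 and 52.1-fold higher by the same bound. The Poteg region lies 372 kb from the gene, so its name is only that of the nearest gene. In the other direction the rule named regions near Etaa1, Ell2 and Cwc27, but none exceeded 0.918 CPM in a day 2 library, and all 3 calls were lost without the second day 2 library or either day 3 library. The next regions were better covered. One 315 kb from Tmprss15, which encodes enteropeptidase, fell from 8.82 and 4.19 CPM to 0.711 and 0.14 CPM (log2 change -3.74 ± 0.60), and one inside the potassium channel gene Kcnh8 fell from 8.05 and 6.03 CPM to 0.711 and 0.28 CPM (-3.69 ± 0.55).

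Changes were less frequent at gene starts than inside genes or away from them, and higher calls were most frequent beyond 200 kb from any gene. Within 1 kb of a listed start, 4.98% of 20535 tested regions were higher and 2.76% lower, and near the ends of genes with no listed start 4.94% and 3.33%. Inside genes the shares were 9.31% and 4.47% of 67824 regions. Outside genes the share called higher was 7.55% up to 10 kb from the nearest gene, 9.11% from 10 to 50 kb, 10.9% from 50 to 200 kb and 12.4% beyond 200 kb. The share called lower over the same distances was 5.04%, 5.34%, 4.7% and 4.1%. Median distance to the nearest listed start was 65.4 kb for regions called higher, 40.6 kb for those called lower and 41.8 kb for all tested regions. Regions more than 50 kb outside any gene made up 26.9% of the higher calls, 21% of the lower calls and 20.8% of all tested regions.

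Level and width moved with the calls, and their part in the shares by position was measured by level only. The share called higher was 3.79% in the 25% of regions with the lowest mean level and 14.5% in the 25% with the highest, and the share called lower was 0.989% and 8.9%. By width the shares called higher were 2.7% in the narrowest 25% and 17.5% in the widest. Within the top 25% by level alone, the order by position was still there: 6.74% of 12578 regions at starts were higher, 18.5% of those inside genes and 29.8% of 2296 regions beyond 200 kb. Lower calls in that set were 3.17% at starts and 3.73% near ends of genes with no listed start, against 10.7% to 13.5% inside genes and at the 4 ranges of distance outside them. By chromosome the share called higher ran from 7.27% on chromosome 11 to 10.6% on chromosome 18.

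**Figure D2:**
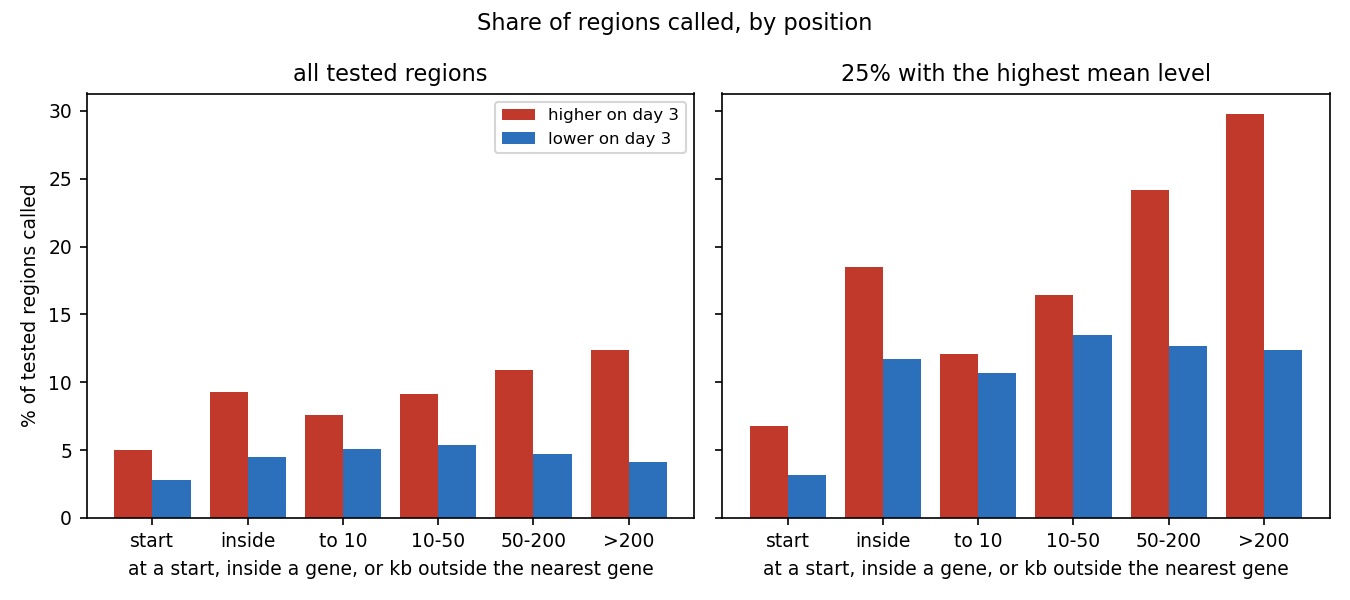
Percent of tested regions called higher (red) and lower (blue) on day 3, by position relative to protein-coding genes, for all tested regions and for the 25% with the highest mean level. Regions near genes with no listed start are not drawn; in the left panel red bars run from 4.98% at starts to 12.4% beyond 200 kb and blue bars from 2.76% to 5.34%; in the right panel red bars run from 6.74% to 29.8%.

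The farthest changed regions without overlap lay megabases from any protein-coding gene. A region 2107 kb from Pcdh20, a protocadherin gene (chr14:90577941-90578312), rose from 0.435 and 1.05 CPM to 4.18 and 5.17 CPM (log2 change 2.68 ± 0.47). One 1957 kb from the cadherin gene Cdh20 rose from 3.48 and 2.75 CPM to 12.9 and 6.85 CPM (1.69 ± 0.30). Of the regions that fell, one 1927 kb from Lrrc4c went from 13 and 10.1 CPM to 3.56 and 4.76 CPM (-1.47 ± 0.36), a call lost without the first day 3 library (-1.23). One 1972 kb from Celf4 went from 20.8 and 13.4 CPM to 9.6 and 6.15 CPM (-1.08 ± 0.25), a call lost without the first day 2 library (-0.76).

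The authors' peak calls, made from the same reads, went with the calls in part and are given as description. Of 9029 tested regions with a peak in no day 2 library and in both day 3 libraries, 5851 (64.8%) were called higher. Of 10392 with a peak in both day 2 libraries and in none of day 3, 2064 (19.9%) were called lower. In 50409 regions with a peak in all 4 libraries, 2822 were higher and 3934 lower. In 40605 regions with a peak in none of the 4 libraries, 2122 (5.23%) were still called higher and 45 lower.

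Many changed regions shared a locus. A region was assigned to the nearest protein-coding gene within 50 kb. Of 18808 genes with a tested region, 1157 had at least 3 regions called higher, 369 at least 3 called lower, and 140 met both conditions. DESeq2 left 540 and 139 such genes, and leaving out 1 library left 584 to 800 and 143 to 231. Among neighbouring called regions within 10 kb of each other, 2323 of 4030 pairs were both higher, 764 both lower and 943 (23.4%) opposite. Genes with at least 3 regions higher had a median of 23 tested regions, against 4 for all genes. The most higher calls were in Tenm3 (28 of 104 tested regions, 26.9%), Macrod2 (26 of 133), Auts2 (24 of 110), Tenm4 (23 of 103) and Lrmda (19 of 65, 29.2%), against 8.9% of all tested regions. These genes span 740 kb to 1998 kb, and Tenm3 and Tenm4 encode teneurins, adhesion proteins of neurons. Lrmda had no region lower, and a region inside it (chr14:22807316-22807646) rose from 0.218 and 0 CPM to 6.31 and 5.87 CPM (log2 change 5.55 ± 0.56).

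The loci with the most lower calls also held higher ones, beside 4.41% of all tested regions lower and 8.9% higher. Zfp423, a zinc finger gene, had 14 lower and 9 higher of 66 tested regions (21.2% and 13.6%). Nav2 had 11 and 10 of 109 (10.1% and 9.17%), and Gse1 11 and 11 of 98 (11.2% each). The higher share of Nav2 was thus near that of all tested regions. Igsf21, an immunoglobulin superfamily gene, had almost no higher call, with 11 lower and 1 higher of 33 regions (33.3% lower, against 4.41% of all). Its summed level went from 201 and 210 CPM to 101 and 99.7 CPM (log2 change -1.01 ± 0.09, adjusted p = 2.91e-11). Of genes with at least 10 tested regions, those with the largest shares were looked up after the values were seen. On the higher side these were Hoxd3 (11 of 19), Fzd10 (12 of 21), Cited2 (6 of 11), Plk2 and Zfp503 (7 of 14 each) and Cdx2 (5 of 10). On the lower side they were the receptor tyrosine kinase gene Tyro3 (6 of 10), the ammonia transporter gene Rhbg (5 of 13) and Arhgef19 (4 of 11).

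Runs of at least 3 neighbouring tested regions called in 1 direction, with gaps of at most 50 kb, numbered 303 upwards (6.47% of the higher regions) and 54 downwards (2.21% of the lower ones). Under DESeq2 they numbered 107 and 17, and without 1 library 96 to 144 and 14 to 23. The upward runs with most regions held 6 each. The one with the larger summed log2 change spanned 20.4 kb (chr12:39740895-39761262) and lay 272 to 292 kb from Arl4a, a small GTPase gene. Its first region went from 6.75 and 7.34 CPM to 57.7 and 47 CPM (log2 change 2.91 ± 0.17, adjusted p = 3.63e-21). The other spanned 49.7 kb and lay 49.4 to 98.9 kb from Ktn1, which encodes the kinesin-binding protein kinectin. A run of 5 regions lay 0.941 to 13.3 kb from Fgf8, the growth factor of the caudal epiblast (chr19:45722869-45735550). The Fgf8 region farthest from the gene had 0 and 0 CPM on day 2 and 5.16 and 5.59 CPM on day 3, a rise of at least 30.1-fold, and the nearest went from 1.09 and 1.05 CPM to 14.9 and 12.7 CPM (3.70 ± 0.38). No downward run had more than 4 regions, and of those with 4 the largest summed changes were near Ptprt and Gm20594 and inside Nav2 and Ncan. In the Nav2 run (chr7:49347316-49349190) the strongest covered region fell from 34.2 and 31.1 CPM to 9.87 and 6.99 CPM (-1.92 ± 0.23).

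The Wnt pathway was described by role, with 1 summed value per gene over its assigned regions. In all, 4311 of 18970 genes (22.7%) changed by this value, 2328 higher (12.3%) and 1983 lower (10.5%), and the median log2 change over all tested genes was 0.00. Higher calls made up 54% of the changed genes, but 43.8% under DESeq2 and 65% when only the 4 libraries of these days were fitted. DESeq2 called 1376 genes higher. Among 11 Wnt ligand genes, 2 rose and 2 fell (median 0.12). Wnt5b, a ligand active in the caudal embryo, went from 57.8 and 59 CPM to 131 and 132 CPM (log2 change 1.19 ± 0.10, adjusted p = 1.47e-12), with 6 of 21 regions higher. The region over the Wnt5b start printed above (chr6:119449155-119449979) went from 9.25 and 11.5 CPM to 57.8 and 53.3 CPM (2.44 ± 0.19, adjusted p = 5.25e-16). Wnt5a, its close relative, rose by 0.69 ± 0.13, with a region 2.9 kb from the gene going from 0 and 0.524 CPM to 11.6 and 9.37 CPM. Wnt7b and Wnt10a fell by 0.40 and 0.31, but both calls were lost without the second day 3 library (-0.24 and -0.26) and that of Wnt7b also without the second day 2 library (-0.32), and over a 10 kb window Wnt10a stood at 0.22.

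Wnt3a and Wnt8a, ligands of the caudal epiblast, did not pass the test as sums, at 0.34 and -0.11. A single region 3.83 kb from Wnt3a (chr11:59243823-59244206) nevertheless rose from 1.2 and 0.787 CPM to 9.87 and 9.23 CPM (3.25 ± 0.45, adjusted p = 1.06e-07). A region inside Wnt3 rose from 0 and 0 CPM to 1.78 and 2.1 CPM, at least 10.9-fold higher. Near Wnt8a the single call was downwards, from 5.33 and 9.83 CPM to 3.29 and 1.82 CPM (-1.51 ± 0.43).

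Of 17 receptor and co-receptor genes, 3 rose and 3 fell (median 0.05), beside 12.3% of all tested genes higher and 10.5% lower. Fzd10, a Frizzled receptor gene, showed the largest change in the pathway lists, from 56.5 and 60.2 CPM to 167 and 171 CPM (log2 change 1.56 ± 0.10, adjusted p = 1.32e-16). Its 12 higher regions were spread from 30.8 kb before the start to 44.79 kb past it, and none of its 21 was lower. The region next to the start (chr5:128600123-128601060) went from 16.5 and 17.8 CPM to 67 and 77.6 CPM (2.09 ± 0.17). Rspo3, which encodes an R-spondin that strengthens Wnt signalling, rose by 0.60 ± 0.14. Fzd8 was called higher at 0.35 and Fzd4, Fzd7 and Lgr6 lower at -0.45, -0.37 and -0.47. The Fzd8 call was lost without the second day 2 library (0.15) or the first day 3 library (0.29), Fzd4 without the first day 2 or second day 3 library (-0.38 and -0.39), Fzd7 without the first day 3 library (-0.30) and Lgr6 without the second day 2 or first day 3 library (-0.43 and -0.40). Over a 10 kb window Fzd4 stood at 0.07 and Fzd7, no longer called, at -0.07. Under DESeq2 Fzd8 was not called, at 0.30. The co-receptor genes Lrp5 and Lrp6 did not pass, at -0.40 and 0.20.

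Among 13 transducers, 3 rose and none fell (median 0.09), beside 12.3% of all tested genes higher and 10.5% lower. Csnk1a1, the gene of casein kinase 1 alpha, rose by 0.64 ± 0.10. Gsk3a and Gsk3b, which encode the kinases that CHIR99021 inhibits, rose by 0.44 and 0.32, and both calls were lost without the second day 3 library (0.25 and 0.26). Gsk3a was also lost without the first day 2 library (0.35) and Gsk3b without the second (0.25). Ctnnb1, the beta-catenin gene, did not pass, at 41.6 and 47.1 CPM on day 2 and 46.8 and 46.4 CPM on day 3.

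Of 8 TCF/LEF factors and co-repressors, 4 rose and 1 fell (median 0.15), beside 12.3% of all tested genes higher and 10.5% lower. Tcf7l1, the factor known mainly as a repressor of Wnt targets in pluripotent cells, fell from 185 and 190 CPM to 144 and 136 CPM (log2 change -0.40 ± 0.08, adjusted p = 3.04e-04). Tcf7l2 rose by 0.34 ± 0.09, a call lost without the first day 2 library (0.28). Tle1, Tle3 and Tle4, Groucho-type co-repressors, were called higher by 0.28 to 0.40, and each was lost without the second day 3 library (0.23, 0.26 and 0.20). Tle3 was also lost without the first library of either day (0.15 and 0.28), and Tle4 without the first day 2 library (0.19), and neither was called under DESeq2 (0.24 and 0.23). Lef1 showed a sum with almost no change, 199 and 172 CPM against 185 and 185 CPM, over 6 higher and 3 lower regions of 31. A region 20.46 kb before its start (chr3:131089678-131090002) rose from 0.218 and 0.262 CPM to 4.98 and 4.34 CPM (4.24 ± 0.56).

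Of 15 feedback inhibitor genes, 5 rose and 1 fell (median 0.16), beside 12.3% and 10.5% of all tested genes. Axin2, the scaffold of the degradation complex that is itself a Wnt target, went from 98.9 and 103 CPM to 200 and 217 CPM (log2 change 1.07 ± 0.09, adjusted p = 1.69e-11). Of its 29 regions 12 were higher and none lower. The largest well covered changes were upstream. A region 13.43 kb before the start (chr11:108906661-108907172) went from 0.544 and 0.524 CPM to 12.3 and 11.6 CPM (4.47 ± 0.45), and one 27.09 kb before it from 1.31 and 1.31 CPM to 16.5 and 19.4 CPM (3.79 ± 0.34). The Axin2 start region, open on both days, went from 31.6 and 42.2 CPM to 59.7 and 83.2 CPM (0.98 ± 0.16). Nkd1, which binds Dishevelled, rose by 0.84 ± 0.14. A region 32.23 kb before the Nkd1 start (chr8:88495138-88495671) went from 0.871 and 0.655 CPM to 25.9 and 27.6 CPM (5.11 ± 0.33, adjusted p = 9.54e-20).

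Dkk4 and Dkk1, secreted inhibitors that bind LRP, rose by 1.22 ± 0.32 and 0.51 ± 0.13. The Dkk4 call rested on 5.01 and 2.88 CPM against 7.82 and 10.8 CPM and was lost without the second day 2 library (0.87) or the second day 3 library (0.92). The Dkk1 sum was called although none of its 10 regions was, and over a 10 kb window it did not pass, at 0.41. Near Znrf3, a ubiquitin ligase gene that removes Frizzled from the membrane, 5 of 21 regions were higher. Sfrp1, a secreted Wnt binder, was the member that fell, from 55.6 and 60.8 CPM to 35.8 and 31.5 CPM (-0.77 ± 0.13), with a region 11.6 kb from the gene falling from 14.3 and 15.5 CPM to 2.58 and 1.4 CPM (-2.82 ± 0.34). Over the list the summed level was 692 to 743 CPM on day 2 and 915 to 930 CPM on day 3. The largest rises in mean CPM were at Axin2 (101 to 209), Nkd1 (72.2 to 127) and Znrf3 (57 to 99.5). Of the 15 genes 9 did not pass, so the sum does not show a rise over the whole list.

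**Figure D3:**
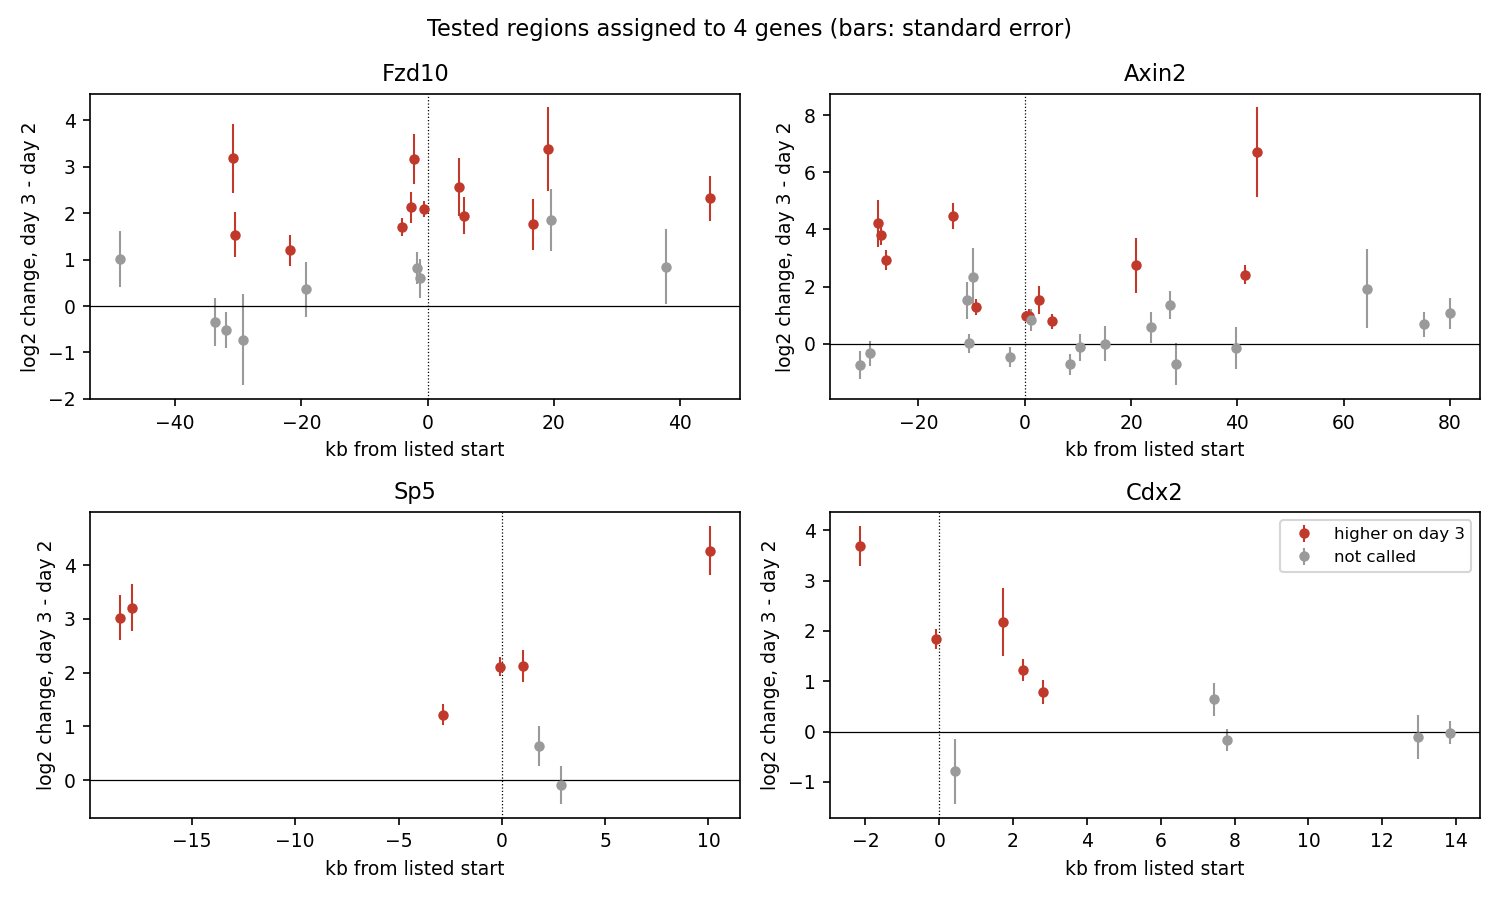
Log2 change from day 2 to day 3 (vertical axis, bars are standard errors) of every tested region assigned to Fzd10, Axin2, Sp5 and Cdx2 by distance from the listed start in kb (horizontal axis); red points are called higher and grey points are not called. Higher calls number 12 of 21, 12 of 29, 6 of 8 and 5 of 10, lie on both sides of each start, and no region of the 4 genes was called lower.

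Most genes of the caudal epiblast list were called higher. Of 17 genes, 12 rose and none fell, with a median log2 change of 0.95, and 51 of their 167 regions were higher (30.5%) against 3 lower, beside 12.3% of all tested genes and 8.9% of all tested regions higher. The summed level was 705 to 735 CPM on day 2 and 1155 to 1177 CPM on day 3. Sp5 and Cdx1 belong to this list and were used as markers, so its count is not independent of them. Cdx2, a caudal homeobox gene, had 5 of 10 regions higher. Its start region (chr5:147307049-147307628) went from 12.8 and 10.9 CPM to 41.3 and 42.7 CPM (1.84 ± 0.20), and a region 2.15 kb before the start went from 0.762 and 0.787 CPM to 10.5 and 9.51 CPM (3.69 ± 0.40). Nkx1-2, a homeobox gene of neuromesodermal progenitors, rose over its start from 5.12 and 4.85 CPM to 12 and 14.7 CPM (1.43 ± 0.27). Greb1 had 9 of 27 regions higher, of which one inside the gene (chr12:16731129-16731628) went from 0.218 and 0.524 CPM to 15.6 and 11.7 CPM (5.23 ± 0.43). Evx1, Sp8 and Fgf8 rose by 0.95, 0.59 and 1.51.

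Cyp26a1, which encodes the enzyme that degrades retinoic acid in the tail bud, rose by 1.09 ± 0.16, but through 2 distant regions 33.38 and 42.35 kb past its start. With a window of 10 kb its value was -0.04. The sum of T (Brachyury) did not pass, at 14.8 and 15.6 CPM against 19.4 and 16.8 CPM. The region that overlaps the T sequence printed above (chr17:8433867-8434377) was assigned to the overlapping gene LOC115486424, and it rose from 6.97 and 8.78 CPM to 14.8 and 16.8 CPM (1.03 ± 0.26, adjusted p = 0.00341). The region over the Sp8 start rose from 19 and 24 CPM to 46.8 and 44.1 CPM (1.10 ± 0.16). Tbx6 was called higher on 0.653 and 0.524 CPM against 2.13 and 2.38 CPM, in 1 region that did not pass on its own.

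Hox genes set position along the body axis and are opened in the order of their clusters in the embryo. Of 12 tested genes of groups 1 to 4, 7 rose and none fell (median 0.85), and 36% of their 136 regions were higher, beside 12.3% of all tested genes and 8.9% of all tested regions. Of 13 tested genes of groups 5 to 9, 9 rose and none fell (median 0.92), and 2 more genes of the list had no assigned region that could be tested. Of 12 genes of groups 10 to 13, Hoxc13 rose, Hoxc10 fell and the others did not pass (median -0.25). The Hoxc10 call, at -0.60, was lost without the first day 2 library (-0.57) or the second day 3 library (-0.49). Hoxc4 had 11 of 26 regions higher and Hoxd3 11 of 19, including one 22.65 kb past the Hoxd3 start (chr2:74734426-74734856) that went from 0.762 and 1.05 CPM to 14.4 and 16.5 CPM (4.11 ± 0.32). Regions just before the listed starts of Hoxa7 and Hoxb8, whose sequences are printed above, had at most 0.524 CPM on day 2. Hoxa7 (chr6:52218699-52219071) went from 0 and 0.524 CPM to 9.69 and 8.39 CPM (5.18 ± 0.54) and Hoxb8 (chr11:96281636-96281767) from 0 and 0.131 CPM to 5.34 and 2.1 CPM (5.71 ± 0.94). Regions between neighbouring Hox genes can be assigned to either, so counts of single Hox genes depend on that choice.

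Genes of the primed epiblast, the state before caudal patterning, were called in the other direction. Of 13, none rose and 9 fell (median -0.59), and 24 of their 156 regions were lower (15.4%) against 8 higher, beside 10.5% of all tested genes and 4.41% of all tested regions lower. Fgf5 belongs to this list and was used as a marker. Pou5f1, the OCT4 gene, went from 50.4 and 49.9 CPM to 31 and 29.8 CPM (log2 change -0.70 ± 0.16), Pou3f1 from 79.5 and 89.3 CPM to 49.7 and 56.6 CPM (-0.65 ± 0.12) and Foxd3 from 73.5 and 61.6 CPM to 39.3 and 36.9 CPM (-0.81 ± 0.13). Near Dnmt3b, a DNA methyltransferase gene, regions 7.62 and 6.22 kb before the start fell from 12.3 and 12.7 CPM to 1.78 and 3.5 CPM and from 22.2 and 25.8 CPM to 4.45 and 5.87 CPM.

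The naive pluripotency genes were mixed, beside 12.3% of all tested genes called higher and 10.5% lower. Klf5, Tfcp2l1 and Dppa3 rose by 0.49, 0.57 and 0.64, while Klf2, Nanog, Tcl1 and Fgf4 fell by 0.69, 0.36, 0.70 and 0.80, of 13 genes in all (median 0.14). Over a 10 kb window Dppa3 stood at -0.14, and Klf5 did not pass, at 0.11. By region, 32 of 149 were higher (21.5%, against 8.9% of all tested regions) and 10 lower. Nanog fell as a sum although 3 of its 10 regions were higher and 1 lower, the strongest of them 17.59 kb before the start, from 0 and 0.131 CPM to 1.07 and 1.12 CPM.

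Of all tested genes 12.3% were called higher and 10.5% lower, and in the FGF pathway 7 of 21 genes rose and 5 fell (median 0.04). Those that rose were the ligand genes Fgf8 and Fgf3 and the feedback genes Dusp4 (0.74 ± 0.10), Dusp6, Spry1 (0.78 ± 0.11), Spry4 (0.66 ± 0.13) and Spred2 (0.62 ± 0.08). Those that fell were the ligand genes Fgf5 and Fgf4 and the receptor genes Fgfr2 (-0.58 ± 0.10), Fgfr3 and Fgfr4. The Fgf3 call, at an edgeR adjusted p of 0.0443, was not followed in the other settings. Of 12 Nodal pathway genes, the receptor gene Acvr1b rose by 0.64, and Lefty1 and Cer1, secreted Nodal inhibitors, fell by 0.55 and 0.70. The Cer1 call was lost without the first library of either day (-0.46 and -0.57) and under DESeq2 (-0.74). Of 13 retinoic acid genes 2 rose (Cyp26a1 and Crabp1) and 2 fell (Cyp26c1 and Rdh10), with a median of 0.11. Rdh10 was lost without the first library of either day (-0.30 and -0.24), Cyp26c1 without the second day 2 library (-0.60), and Crabp1 with a 10 kb window (0.23).

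Lists of later fates held calls in both directions, beside 12.3% of all tested genes higher and 10.5% lower. In the presomitic mesoderm list 2 of 18 genes rose and 4 fell (median 0.06), with Ripply1, Lfng, Tcf15 and Foxc2 falling, Ripply1 with its call lost without the first day 3 library (-0.64). The genes that rose were Tbx6 and Foxc1, the latter not called over a 10 kb window (0.17). Tbx6 and Foxc2, with edgeR adjusted p of 0.0428 and 0.0474, were not followed in the other settings. Just before the start of Msgn1, a presomitic mesoderm factor gene, a region rose from 0.762 and 0.524 CPM to 3.38 and 2.94 CPM (2.28 ± 0.68, adjusted p = 0.0158), though the Msgn1 sum did not pass. In the neural list 3 of 18 genes rose and 3 fell, but the calls of Neurog2 and Msx1 were lost without the second day 3 library (0.28 and 0.32) and that of Neurog2 also without the first day 2 library (0.31), which leaves 1 higher. Pax3, a dorsal neural and somite factor gene, rose by 0.62 with 8 of 29 regions higher, and Sox1, an early neural factor gene, fell by 0.47 with 5 of 18 regions lower. With a 10 kb window Sox1 did not pass, at -0.19. Sox2 did not pass, with 158 and 174 CPM on day 2 and 160 and 148 CPM on day 3 over 4 higher and 4 lower regions of 30. Anterior neural genes had 2 of 12 higher (Otx1 and En1) and 2 lower (Lhx5 and Dmbx1). Otx1 was lost under DESeq2 (0.30), over a 10 kb window (0.29) and without either day 2 library or the second day 3 library (0.29 to 0.35). En1 was lost over a 10 kb window (0.22), and Dmbx1 without the second day 2 or first day 3 library (-0.36 and -0.37).

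Markers of other cells that the cultures could hold were counted beside the same shares of all tested genes, 12.3% higher and 10.5% lower. Endoderm had 3 of 14 genes higher, Foxa2 and Ttr among them, and none lower, with a summed level of 498 to 501 CPM on day 2 and 514 to 533 CPM on day 3, and Sox17 did not pass. The Foxa2 call, at 0.37, was lost under DESeq2 (0.32) and without either day 2 library or the second day 3 library (0.28 to 0.34), and the Ttr call over a 10 kb window (1.22) and without the first day 3 library (0.58). Lateral plate, heart and blood had 0 of 12 higher and 2 lower, neural crest 0 of 9 and 1 (Foxd3, also in the epiblast list), and trophoblast 1 of 8 and 1. Both lateral plate, heart and blood calls, Nkx2-5 and Pecam1, were lost without the second day 3 library (-0.59 and -0.42), Nkx2-5 also without the first day 2 library (-0.55) and Pecam1 without the second (-0.42) and over a 10 kb window (-0.12). The trophoblast calls, Plac1 higher and Ascl2 lower, were both lost without the second day 2 library (0.38 and -0.34) or the first day 3 library (0.36 and -0.44), and Ascl2 also without the second day 3 library (-0.48). Feeder fibroblast markers had 2 of 14 higher and 1 lower, at a summed 468 to 478 CPM on day 2 and 471 to 518 CPM on day 3, and their 3 calls (Prrx1, Vim and Col6a1) were each lost without the second day 2 library or without either day 3 library, with log2 values of 0.28, 0.18 and -0.42 in the first case. Col1a1 and Col1a2 stood at 0.00 and -0.01. Housekeeping genes had 2 of 16 higher and none lower (median 0.17), and both calls (Polr2a and Eef1a1) were lost under DESeq2 (0.31 and 0.21), under cyclic loess (0.26 and 0.14) and without the first day 2 library (0.18 and 0.25) or the second day 3 library (0.28 and 0.19). Eef1a1 was also lost without either of the other libraries. Accessibility near a marker gene does not show that the gene was expressed. No tested marker was at 0, and the lowest were Lum, at a mean of 1.96 CPM on day 2 and 3.55 CPM on day 3, and Sox10, at 3.32 and 3.39 CPM. The part of such cells in the results was not tested.

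**Figure D4:**
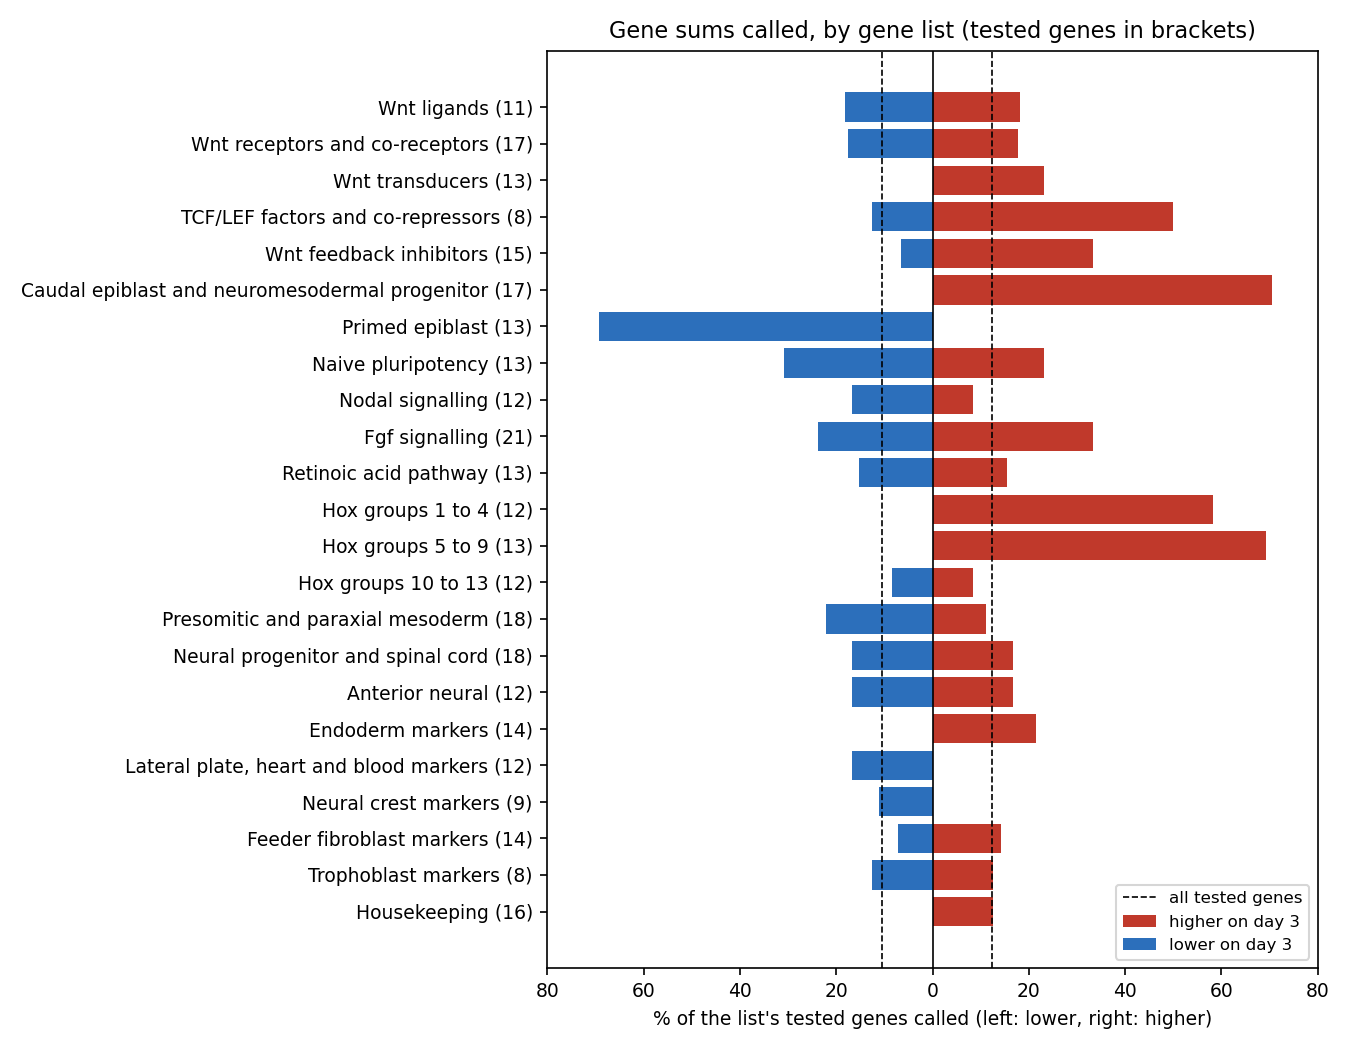
Percent of the tested genes of each list whose summed accessibility was called higher (red, to the right) or lower (blue, to the left) on day 3, with the number of tested genes in brackets; dashed lines are the shares of all tested genes, 12.3% and 10.5%. The caudal list (12 of 17), the Hox groups 5 to 9 (9 of 13) and the Hox groups 1 to 4 (7 of 12) reach farthest to the right and the primed epiblast list (9 of 13) farthest to the left.

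The authors' deposited motif tables for this pair of days list the share of target regions with each known motif beside that of background regions. In the authors' deposited table of regions listed as up over all peaks, the first motifs were LEF1, in 42.12% of targets and 15.04% of background, Tcf3 (25.95% and 5.88%), CDX4 (44.47% and 17.36%), Cdx2 (36.4% and 14.41%) and Tcf7 (24.26% and 7.37%). The authors' other deposited up table, named join peaks, had a different order. It began with Tcf3 (30.82% and 5.7%), LEF1 (47.84% and 14.91%), Tcf7 (27.69% and 7.29%), CDX4 (42.75% and 16.58%) and TCFL2 (14.51% and 1.92%). In the authors' deposited table of regions listed as down, the first was the composite OCT4-SOX2-TCF-NANOG motif ATTTGCATAACAATG, in 21.6% of targets and 2.68% of background, followed by Sox2 (38.64% and 16.23%), Oct4 (23.37% and 7.01%), Brn1 (19.02% and 4.87%) and Sox3 (55.43% and 31.33%). In the authors' deposited table of regions listed as down LEF1 was in 15.82% of targets and 12.68% of background, and CDX4 in 8.94% and 13.7%. The SOX motifs were listed in both directions, and in the authors' deposited table of regions listed as up over all peaks Sox2 was in 38.37% of targets and 18.51% of background. How the authors chose target and background regions, and which day their up and down refer to, is not given in the sources used here.

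After day 3 some of the changed regions kept their level and others returned. Regions called higher had a median of 3.53 CPM on day 3, 3.73 CPM on day 6, 3.03 CPM on day 7 and 3.36 CPM on day 7 with Gdf11, and regions called lower 3.18, 2.84, 2.25 and 2.88 CPM. Day 3 values took part in choosing these regions, so the later medians are given as levels only. Of the higher calls, 57.5% held a peak in both day 6 libraries, against 34.7% of all tested regions, and 10.8% held none in any of the 6 later libraries, against 18.4%. Of the lower calls, 43.9% held a peak in both day 6 libraries and 23.7% none in the later libraries. The region next to the Fzd10 start stayed high, at 65.9 and 60.8 CPM on day 6. The Wnt5b start region was back at 14.7 and 16.7 CPM on day 6 and at 9.67 and 10.9 CPM on day 7. The Axin2 region 13.43 kb upstream was at 4.13 and 2.84 CPM on day 6 and at 1.55 and 1.6 CPM on day 7. The region near Wnt3a fell back to 0.892 and 1.62 CPM on day 6, and the Fgf8 region nearest the gene to 4.62 and 3.78 CPM. The Lrmda region went on up, to 15.2 and 12.4 CPM on day 6 and to 21.1 and 27.6 CPM on day 7. The Fgf5 region 1.83 kb past the start was at 9.24 and 5.54 CPM on day 6. These regions were picked after their values were seen, and the later days were not tested here.

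**Figure D5:**
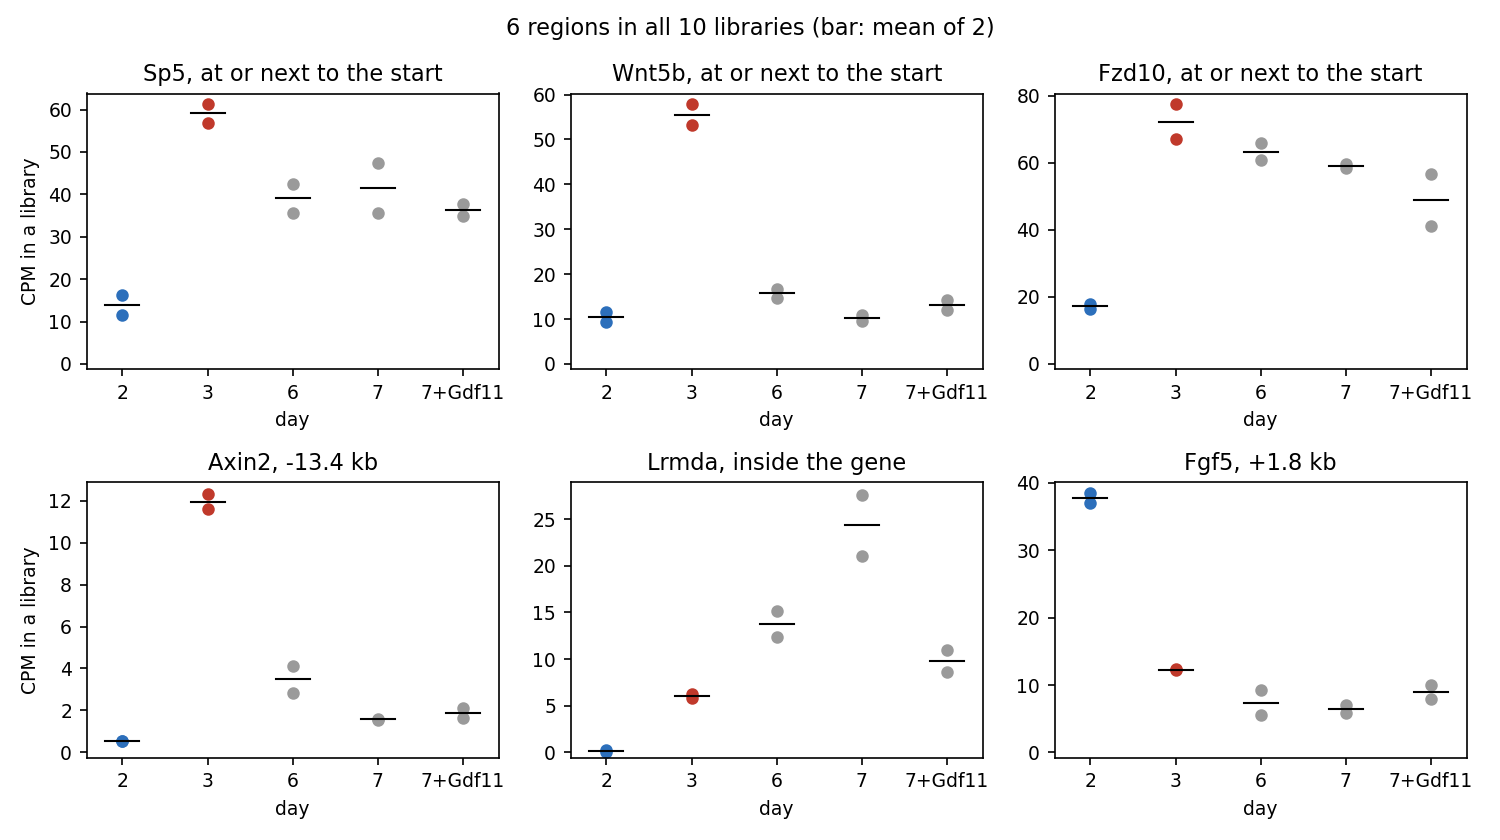
CPM (vertical axis) of 6 regions in every library of day 2 (blue), day 3 (red) and the later groups (grey), with the mean of 2 libraries as a black line. The Fzd10 region stays at 41.2 CPM or more after day 3 in each library, the Wnt5b region and the upstream Axin2 region come down again by day 6, and the Lrmda region is highest on day 7.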

How the data were processed

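The members, gene lists and rules for named genes were chosen with earlier results of these data known. The deposited counts are raw counts per merged region and library, and the counter is not given in the sources used here. The deposited peak lists, called per library, give a fold enrichment (ratio) and −log10 of p and q values for each peak, and only positions were used. The authors' deposited motif tables give percents, counts of sequences and a score, the natural log of a p-value. Per the submitters' processing notes, the tools were HOMER 4.10, MACS2 2.1.1.20160309, HISAT2 2.1.0, bedtools and SAMtools and the build was mm10, with no roles stated.

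The count files carry no coordinates. The 10 peak lists were merged with chromosomes in character order, which gave 246799 regions, and row n was taken as region n. No library then had a count of 0 in a region with its own peak, while numeric order left 1095 to 9931 such zeros. Genes came from RefSeq on GRCm38.p6: 21883 protein-coding genes, of which 17491 had a listed start (none on chromosome 18). Of the regions, 73624 failed filterByExpr.

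Counts were tested with edgeR 4.0.16 in R 4.3.3 (quasi-likelihood F test, two-sided, TMM factors, 1 fit of all 10 libraries by group, Benjamini-Hochberg over all tested regions or genes, threshold 0.05). In simulated counts for 155036 regions, 183 of them changed, the fit recovered 51 of the changed regions and called 2 unchanged ones. It gave 1 changed region the wrong sign. A region that was not called can therefore still have changed. Far fewer regions were changed in the simulation than the 13.3% called in these data, and the same dispersion was set for all. The share recovered there does not measure the share recovered here. The common dispersion was 0.0402. Gene values are sums over assigned regions with the region table's library sizes and factors. CPM carry no TMM factor. Standard errors come from the F statistic. Floors of 3 counts over a group cover counting error only. The rule named marker regions, the 5 largest changes and the 3 farthest regions per direction, the 8 genes with most calls, the 4 longest runs, up to 4 genes per list, the first 5 motifs and any Wnt pathway gene. Alternatives were DESeq2 1.42.0, library size only, cyclic loess with limma 3.58.1, 2 other filters, only the day 2 and 3 libraries, a replicate block, no mitochondrial regions, each library left out, a 10 kb gene window, and other thresholds for loci and runs. The values of 1 endoderm marker are not reported here.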

Additional observations from a re-analysis of the deposited data

How the results depend on the processing

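With DESeq2 the counts fell to 13231 regions (8859 higher, 4372 lower), 1376 genes higher, 632 genes with at least 3 regions in 1 direction (540 higher, 139 lower), and 107 and 17 runs. Asking for at least 5 regions left 414 genes (377 higher, 65 lower), and a filter of at least 20 counts in 2 libraries gave 99 downward runs. Without 1 library, regions changed ranged from 14478 to 16655 (higher 9611 to 11885, lower 4438 to 5808), genes higher from 1353 to 1806, genes with at least 3 regions in 1 direction from 693 to 896 (higher 584 to 800, lower 143 to 231) and runs from 96 to 144 upwards and from 14 to 23 downwards, and the cause was not tested beyond the fewer libraries. Over a 10 kb gene window, Cyp26a1 (-0.04), Dppa3 (-0.14), Fzd4 (0.07) and Wnt10a (0.22) changed sign, since fewer regions enter their sums. Of 107 called values named by the rules, DESeq2 kept 91, cyclic loess 94, library size only 107 and no mitochondrial regions 107, and leaving out 1 library kept 79 to 90. Higher calls were 54% of changed genes, against 43.8% with DESeq2, 49.2% with cyclic loess, 65% with only the day 2 and day 3 libraries and 44.9% to 57.5% without 1 library. The deviations of same-numbered libraries of day 2 and day 3 correlated at 0.033. This value, taken over noisy differences between single libraries, cannot decide whether the replicate numbers mark a shared culture or batch. In every group the first library held more counts than the second and a lower mitochondrial share. On day 3 these were 11246030 against 7150334 counts and 10.13% against 13.35%. With the number as a replicate block, 24178 regions (16147 higher, 8031 lower) and 5475 genes passed, against 23055 regions and 4311 genes without it. With the block, 107 of 107 named values kept their call. Regions removed by the filter cannot be called unchanged, since their counts are too low to test.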
